A study of Mus musculus with 8 samples.

Results

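The genes described here are 36 enzymes, transporters and regulators of glycolysis, lactate handling and glycogen turnover, taken by symbol from a table of 22518 genes; each symbol matched 1 row. They were measured by RNA sequencing in whole hearts of C57BL/6 mice at postnatal day 12. The groups were 4 libraries from wild type littermates and 4 from mice labelled as PHD2/3 endothelial knockouts, that is, with PHD2 and PHD3, the prolyl hydroxylases that use oxygen, deleted in endothelium. The promoter that drives the deletion is not given in the sources used here, and by the label the deletion is confined to endothelial cells. Whether each library is 1 animal is not stated, so the p-values measure the spread between libraries, which may be technical. Values are quantile-normalised FPKM (sequenced fragments scaled by transcript length and library size), which are per length and so comparable between genes.

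Glycolysis splits glucose into pyruvate, and lactate dehydrogenase turns pyruvate into lactate that leaves or enters the cell through monocarboxylate transporters. Most steps have several isoenzymes: heart and skeletal muscle carry forms such as PGAM2, ENO3, PFKM and PYGM, whereas other cell types use widely expressed forms such as PGAM1, ENO1, PFKL, PFKP and PYGB. PHD enzymes send hypoxia-inducible factor (HIF) alpha subunits to degradation, and many genes of the widely expressed forms are known HIF targets. Endothelial cells rely mostly on glycolysis, whereas the maturing heart muscle moves towards fatty acid oxidation.

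Of the 36 genes, 33 averaged 1 FPKM or more across the 8 libraries and entered the test. In the knockout hearts 16 of these rose and 0 fell at adjusted p under 0.05 (limma, Benjamini-Hochberg over 11390 genes), while 6.15% of all genes tested rose and 6.01% fell. At unadjusted p under 0.05, 19 were higher and 2 lower. The median log2 difference of the 33 was 0.38, beside -0.01 over all genes tested. In 18 of the 33 every knockout value lay above every wild type value, and in 0 every value lay below; among all genes tested these shares were 10.3% and 10.4%. Omitting wild type replicate 2 or 4 left 9 raised genes, and omitting knockout replicate 2 left 10. The count over all genes tested also dropped in these omissions, from 701 raised to 288, 356 and 382 in turn. Of the 33, 1 fell without knockout replicate 1 (Hk2) and 1 without knockout replicate 4 (Pygm). Over all genes 888 and 700 fell there, beside 684 with all libraries. Of the deleted genes, Egln1 (PHD2) was at 52.9 ± 5.40 FPKM across wild type libraries and 57.4 ± 4.73 FPKM across knockouts (adjusted p = 0.442) and Egln3 (PHD3) at 28.2 ± 8.83 and 40.8 ± 8.58 FPKM (adjusted p = 0.132), so gene-level values of the whole heart do not check the genotype. In a whole heart, more cells of a type and more RNA per cell cannot be told apart.

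**Figure D1:**
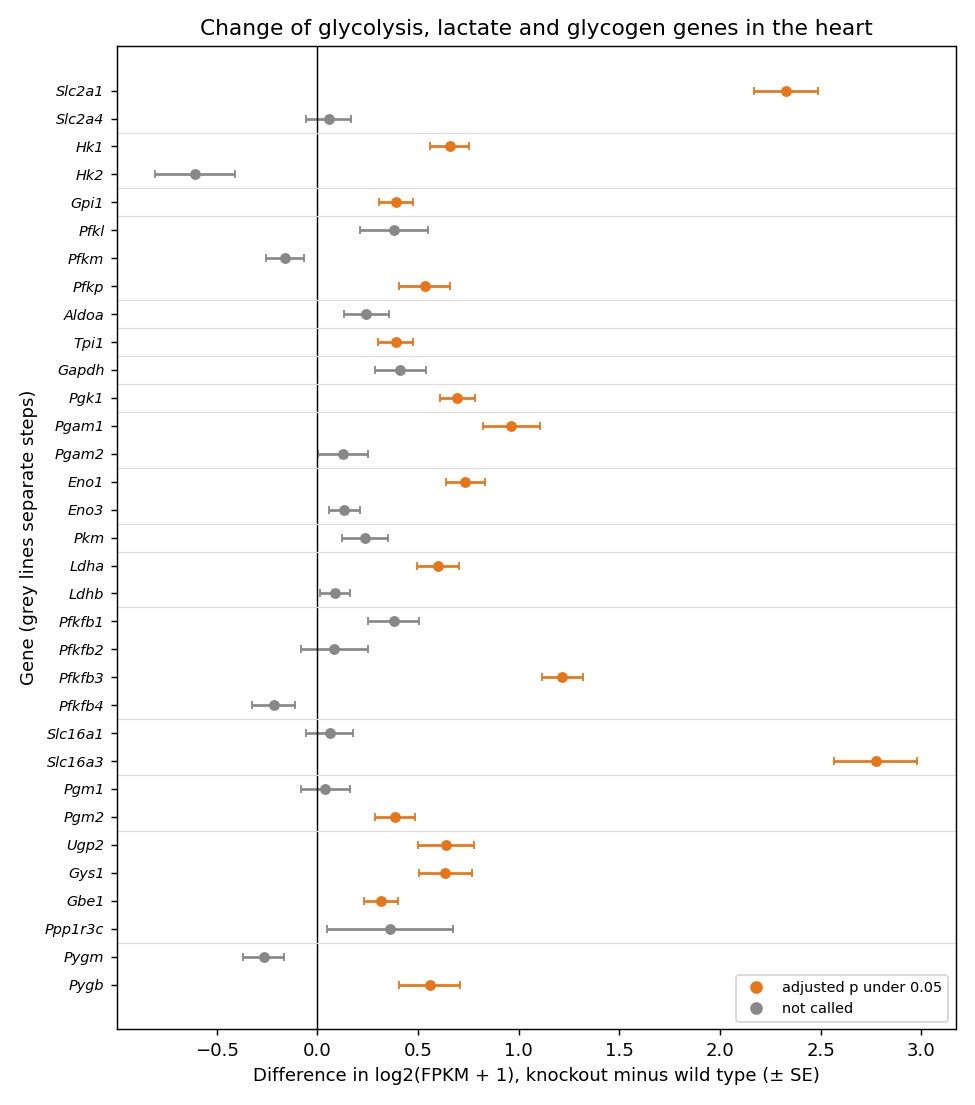
Difference in log2(FPKM + 1) between knockout and wild type hearts (x axis, ± SE from limma, n = 4 per group) for the 33 genes tested (y axis), ordered by step, with orange for adjusted p under 0.05 and grey for genes not called. Slc16a3 at 2.77 and Slc2a1 at 2.33 lie farthest to the right, and Hk2 at -0.61 farthest to the left.

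In wild type hearts the levels of these genes spanned more than 3 orders of magnitude. Gapdh was highest at 1984 ± 187 FPKM (mean ± SD, n = 4, here and below), rank 29 of the whole table, followed by Aldoa at 1143 ± 70.3 FPKM. Eno3 at 834 ± 71.6 FPKM and Ldhb at 784 ± 36.6 FPKM came next and did not differ beyond their spread. Pgam2, the muscle mutase, was at 536 ± 27.3 FPKM, and Ldha and Pkm, at 478 ± 65.6 and 473 ± 62.7 FPKM, were within each other's spread. At the bottom stood Pfkfb1, Eno2, Slc2a3 and Aldoc, each under 1 FPKM. Because the authors' normalisation gives all libraries nearly the same set of values, small differences are differences of rank. With it, 7 members hold the same number in at least 2 libraries (Gpi1, Aldoa, Gapdh, Eno3, Pkm, Ldhb and Pygm).

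Glucose enters the cell through facilitative transporters. Slc2a1 encodes GLUT1, the widely expressed carrier that also supplies endothelium (chromosome 4, 119108711 to 119137983, mm10). It was at 2.44, 4.05, 3.37 and 2.86 FPKM across the wild type libraries and 25.2, 20.2, 14.96 and 20.01 FPKM across knockouts, listed here and below from replicate 1 to 4. The groups did not overlap, and the highest knockout value was that of replicate 1 (log2 difference 2.33 ± 0.16 on the log2(FPKM + 1) scale, limma adjusted p = 0.000128). On the FPKM scale itself the knockout mean was 6.32-fold the wild type mean, since adding 1 shrinks the change of low genes. Slc2a4, the gene of the insulin-responsive muscle carrier GLUT4, was at 68.6, 57.99, 67.01 and 53.5 FPKM across wild type libraries and 60.8, 61.3, 58.7 and 76.01 FPKM across knockouts. Here the groups overlapped in part, since knockout replicate 4 lay above every wild type value and wild type replicates 2 and 4 below every knockout value. The log2 difference was 0.06 ± 0.11 (95% interval -0.19 to 0.30, adjusted p = 0.773). Slc2a3, which encodes the high-affinity carrier GLUT3, was under the filter, at 0.537, 0.484, 0.436 and 0.681 FPKM across wild type libraries and 2.02, 1.31, 0.705 and 1.30 FPKM across knockouts; these low values did not overlap. Without the filter its adjusted p was 0.0696. The summed level of the 3 transporter genes was 57.03 to 71.5 FPKM across wild type libraries and 74.4 to 97.3 FPKM across knockouts, and Slc2a1 made up 4.92% ± 1.26 of it in wild type and 23.4% ± 3.96 in knockout hearts.

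Hexokinases trap glucose in the cell as glucose 6-phosphate. Hk1, the form of most tissues (chromosome 10, 62268855 to 62379908), was at 45.7, 43.4, 51.1 and 37.1 FPKM across wild type libraries and 67.6, 69.2, 74.4 and 69.1 FPKM across knockouts. Every knockout library was above every wild type library and the spread among knockouts was small (log2 difference 0.66 ± 0.10, adjusted p = 0.00395). Hk2, the insulin-regulated form of heart and skeletal muscle, was at 45.01, 62.2, 54.99 and 52.4 FPKM across wild type libraries and 52.8, 32.9, 24.9 and 33.03 FPKM across knockouts. Knockout replicate 1 lay within the wild type range and the other 3 knockouts lay below it, and the gene did not pass the test (log2 difference -0.61 ± 0.20, adjusted p = 0.0735). Without that replicate adjusted p was 0.00666, and with array weights, which weight each library by its fit in limma, it was 0.0260. The summed level of both genes overlapped between groups, at 98.01 ± 9.10 FPKM across wild type libraries and 106 ± 9.70 FPKM across knockouts, while the share of Hk1 in it was 45.3% ± 4.71 and 66.6% ± 7.79. Gpi1, the isomerase of the next step, rose from 261 ± 10.7 to 343 ± 36.3 FPKM (adjusted p = 0.0179), a call lost without wild type replicate 2 or 4.

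Phosphofructokinase commits the sugar to glycolysis. Pfkp, the platelet form, was at 29.5, 27.8, 29.7 and 24.3 FPKM across wild type libraries and 52.1, 40.3, 34.00 and 37.96 FPKM across knockouts without overlap (log2 difference 0.53 ± 0.13, adjusted p = 0.0270). Omitting wild type replicate 2, 3 or 4 or knockout replicate 2 ended this call. Pfkl, the liver form, was at 28.2, 34.4, 33.9 and 22.5 FPKM across wild type libraries and 45.7, 45.5, 35.4 and 29.9 FPKM across knockouts and was not called (adjusted p = 0.163). Knockout replicate 4 was the one that lay within the wild type range. Pfkm, the muscle form and the main one here, ranged from 186 to 250.4 FPKM across wild type libraries and from 197 to 208 FPKM across knockouts (log2 difference -0.16 ± 0.09, adjusted p = 0.284). Pfkm made up 79.7% ± 1.24 of the 3 genes in wild type and 71.6% ± 3.13 in knockout hearts.

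The PFKFB enzymes make and break fructose 2,6-bisphosphate, the activator of phosphofructokinase. Pfkfb3, the form with the strongest kinase activity (chromosome 2, 11471433 to 11554077), was at 2.18, 2.14, 2.34 and 2.23 FPKM across wild type libraries and 7.72, 7.01, 5.50 and 5.91 FPKM across knockouts, with narrow spread in the wild type and no overlap (log2 difference 1.22 ± 0.10, adjusted p = 0.000383). Its paralogs were not called. Pfkfb2, the heart form, ranged from 6.56 to 8.15 FPKM and 5.80 to 11.04 FPKM (adjusted p = 0.771), and Pfkfb4 from 1.30 to 1.75 FPKM and 0.901 to 1.39 FPKM (adjusted p = 0.197), in wild type and knockout hearts in turn. Pfkfb1 was at 0.957 ± 0.192 and 1.55 ± 0.363 FPKM (adjusted p = 0.0829, but 0.0237 without knockout replicate 1). Its wild type mean was under 1 FPKM, so it passed the filter on all 8 libraries only through the knockout values. Pfkfb1 is nevertheless counted among the 33 tested and the 19 higher at unadjusted p under 0.05. The share of Pfkfb3 in the 4 genes was 18.7% ± 1.06 in wild type and 38.2% ± 1.01 in knockout hearts.

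Among the enzymes from aldolase to phosphoglycerate kinase, which mostly have 1 main gene, Tpi1 and Pgk1 passed the test. Tpi1, which interconverts the triose phosphates, was at 412, 409.6, 423 and 397 FPKM across wild type libraries and 609.5, 580.1, 484 and 487 FPKM across knockouts (log2 difference 0.39 ± 0.09, adjusted p = 0.0223). The groups did not overlap, and the call ended on omission of wild type replicate 1, 2 or 4 or knockout replicate 2. Pgk1, whose enzyme makes the first ATP of the pathway, was at 331, 325, 349 and 287 FPKM across wild type libraries and 545, 569, 478 and 501 FPKM across knockouts, again without overlap (log2 difference 0.69 ± 0.09, adjusted p = 0.00178). Aldoa, the aldolase of muscle and most tissues, was at 1196, 1168, 1168 and 1039 FPKM across wild type libraries and 1594, 1509, 1183 and 1168 FPKM across knockouts; knockout replicates 1 and 2 were above the wild type range and 3 and 4 were not (adjusted p = 0.183). Gapdh, often used as a reference gene, was at 2038, 2096, 2096 and 1707 FPKM across wild type libraries and 3208, 2883, 2195 and 2356 FPKM across knockouts. Its groups did not overlap, but it did not pass the test (log2 difference 0.41 ± 0.13, adjusted p = 0.0613); adjusted p was 0.0436 without knockout replicate 3 and 0.0488 without knockout replicate 4. Aldoc, the brain aldolase, was under the filter, at 0.378 ± 0.144 and 0.870 ± 0.390 FPKM.

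In the lower part of the pathway the widely expressed forms rose and the muscle forms did not pass the test. Pgam1 (chromosome 19, 41911923 to 41918660) was at 49.2, 61.9, 59.8 and 43.3 FPKM across wild type libraries and 115, 124, 89.6 and 92.6 FPKM across knockouts, a 1.97-fold higher mean (log2 difference 0.96 ± 0.14, adjusted p = 0.00395). Its muscle paralog Pgam2 was at 522, 566, 549 and 505 FPKM across wild type libraries and 696, 669, 471 and 531 FPKM across knockouts, with knockout replicate 3 below every wild type value (log2 difference 0.13 ± 0.12, 95% interval -0.15 to 0.40). Eno1 (chromosome 4, 150236721 to 150248879), the enolase of most tissues, was at 132, 134, 126 and 135 FPKM across wild type libraries and 241, 250.4, 204 and 189 FPKM across knockouts without overlap (log2 difference 0.74 ± 0.10, adjusted p = 0.00216). Eno3, the muscle enolase, was at 874, 874, 861 and 727 FPKM across wild type libraries and 899, 899, 899 and 952 FPKM across knockouts. These groups also did not overlap, by a small margin and with tied values, and the gene was not called (log2 difference 0.13 ± 0.08, adjusted p = 0.279). Eno2, the neuronal enolase, was under the filter at 0.633 ± 0.165 and 0.531 ± 0.140 FPKM, and the neuron markers listed beside it summed to at most 1.03 FPKM in any library. Pkm, which encodes both M1 and M2 pyruvate kinase in a gene-level value that cannot separate them, was at 502, 468, 533 and 387 FPKM across wild type libraries and 625, 596, 501 and 502 FPKM across knockouts (adjusted p = 0.203).

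In lactate dehydrogenase and in lactate transport, too, 1 gene rose and its partner did not pass the test. Ldha, the form that favours lactate production (chromosome 7, 46841475 to 46855627), was at 459, 501, 553 and 398 FPKM across wild type libraries and 727, 790.2, 666 and 696 FPKM across knockouts, and all knockout values were higher (log2 difference 0.60 ± 0.10, adjusted p = 0.00775). Ldhb, the heart form, was at 825, 760.2, 802 and 746 FPKM across wild type libraries and 874, 835, 746 and 874 FPKM across knockouts (log2 difference 0.08 ± 0.07, 95% interval -0.08 to 0.25). Ldha therefore went from 37.8% ± 2.95 to 46.4% ± 1.89 of the summed level, yet stayed below Ldhb in mean. Slc16a3, the gene of the lactate exporter MCT4 (chromosome 11, 120948480 to 120960868), was at 1.64, 2.37, 2.07 and 1.30 FPKM across wild type libraries and 26.8, 20.9, 14.4 and 13.7 FPKM across knockouts. The lowest knockout value, in replicate 4, was still far above the highest wild type value, and the means differed 10.3-fold in FPKM (log2 difference 2.77 ± 0.21, adjusted p = 0.000197). Slc16a1, the gene of MCT1, which takes up lactate in heart muscle, was at 56.7, 50.8, 62.8 and 45.3 FPKM across wild type libraries and 58.6, 55.2, 62.5 and 47.99 FPKM across knockouts, with the knockout values inside the wild type range (log2 difference 0.06 ± 0.12, 95% interval -0.20 to 0.32). The MCT chaperone gene Bsg was at 750.0 ± 23.1 and 666 ± 42.4 FPKM (adjusted p = 0.124).

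**Figure D2:**
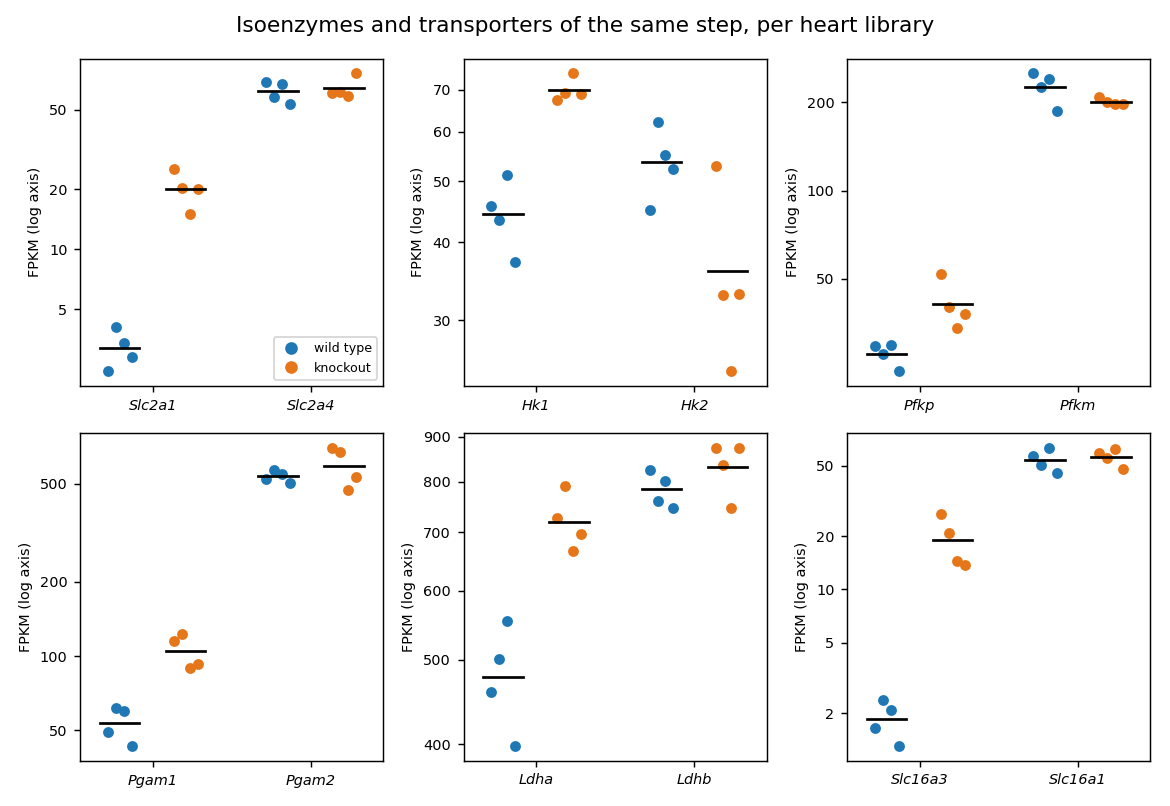
FPKM on a log axis for 6 pairs of genes that serve the same step, with 1 point per heart library (blue wild type, orange knockout, replicates 1 to 4 from left to right) and black lines for the means. In each panel the left gene is higher in every knockout library than in every wild type library, and the values of the right gene overlap between groups.

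Among the genes of glycogen synthesis Ugp2, Gys1 and Gbe1 rose and Ppp1r3c was not called. Ugp2, which makes the UDP-glucose for glycogen, was at 98.6, 89.9, 110.0 and 83.5 FPKM across wild type libraries and 180.0, 167, 120.4 and 134 FPKM across knockouts (log2 difference 0.64 ± 0.14, adjusted p = 0.0181). Gys1, the muscle glycogen synthase, was at 23.5, 21.9, 24.6 and 16.5 FPKM across wild type libraries and 29.97, 36.00, 31.2 and 38.5 FPKM across knockouts (log2 difference 0.63 ± 0.13, adjusted p = 0.0154). In both genes every knockout value was higher; Ugp2 lost its call when wild type replicate 2 or 4 or knockout replicate 2 was omitted. The branching enzyme gene Gbe1 rose from 15.2 ± 0.538 to 19.2 ± 1.95 FPKM (adjusted p = 0.0391), and this call held in 1 of 8 omissions of a library, that of knockout replicate 1. Ppp1r3c, a subunit that brings protein phosphatase 1 to glycogen, was at 27.9, 29.7, 37.4 and 16.4 FPKM across wild type libraries and 57.4, 39.98, 28.03 and 22.2 FPKM across knockouts with the largest SE of the 33 (log2 difference 0.36 ± 0.31, adjusted p = 0.475).

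Glycogen phosphorylase releases glucose 1-phosphate. Pygb, the brain form, which the heart also carries, was at 157, 119.6, 152 and 106 FPKM across wild type libraries and 164, 182, 199 and 241 FPKM across knockouts (log2 difference 0.56 ± 0.15, adjusted p = 0.0419). The call of Pygb held only without wild type replicate 1 or knockout replicate 1 among the 8 omissions. Pygm, the muscle form, was at 237, 274, 262 and 258 FPKM across wild type libraries and 208, 188, 203 and 262 FPKM across knockouts, with 3 knockouts below the wild type range and replicate 4 inside it (log2 difference -0.27 ± 0.10, adjusted p = 0.118, but 0.0131 without knockout replicate 4). Phosphoglucomutase links glycogen to glycolysis. The gene named Pgm2 in the table (ENSMUSG00000025791, called Pgm1 in GENCODE M21) rose from 79.7 ± 6.90 to 104 ± 11.6 FPKM (adjusted p = 0.0359), a call that held in 2 of 8 omissions, those of knockout replicates 1 and 3. The gene named Pgm1 (ENSMUSG00000029171, called Pgm2 in GENCODE M21) was at 4.87 ± 0.555 and 5.06 ± 0.953 FPKM (adjusted p = 0.862).

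To ask whether isoenzymes of 1 step moved apart, the log2 ratio of their values within each library was compared between groups. An exact two-sided permutation test was used, for the 12 of 15 pairs in which both genes passed the filter. The smallest p that 70 splits allow is 0.0286, and p-values were adjusted over the 12 pairs. The ratio was higher in the knockout in 9 pairs (exact p = 0.0286 and adjusted p = 0.0381 in each), and these were the 9 pairs in which the ratios did not overlap. In each of the 9 the gene listed first gained on the second. Pairs were listed with the widely expressed or induced form first. The second was the muscle or heart form or, for lactate, the other transporter. Because of this order, and because members were chosen with earlier results known, the shared direction is not separate evidence. The exact p of all 9 pairs is the smallest possible. Their adjusted p passes only because so many of the 12 pairs reached it, and it does not allow for the choice of members. The largest shifts were those of Slc16a3 to Slc16a1 (2.71 ± 0.24 on the log2 scale, difference ± SE, n = 4 per group), Slc2a1 to Slc2a4 (2.27 ± 0.23), Hk1 to Hk2 (1.27 ± 0.28) and Pfkfb3 to Pfkfb2 (1.13 ± 0.11). Smaller shifts were found for Pgam1 to Pgam2 (0.84 ± 0.09), Pygb to Pygm (0.83 ± 0.18), Pfkp to Pfkm (0.69 ± 0.11), Eno1 to Eno3 (0.60 ± 0.14) and Ldha to Ldhb (0.51 ± 0.11).

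In 3 pairs the ratio did not pass. Pfkl to Pfkm differed by 0.54 ± 0.17 (exact p = 0.0571, adjusted p = 0.0686), and without knockout replicate 4 by 0.66 (adjusted p = 0.0381). Pgm1 to Pgm2 differed by -0.34 ± 0.18 (exact p = 0.114) and Pfkfb4 to Pfkfb2 by -0.30 ± 0.20 (exact p = 0.200), both in the other direction. The pairs that share Pfkm or Pfkfb2 are not independent. With 1 library left out, the adjusted p of Hk1 to Hk2 was 0.0762 without wild type replicate 1, 3 or 4 and 0.0686 without wild type replicate 2. That of Eno1 to Eno3 was 0.0762 when wild type replicate 1 or 3 or knockout replicate 2 was omitted and 0.0686 for wild type replicate 2. That of Pygb to Pygm was 0.0762 without knockout replicate 2 and 0.0686 without knockout replicate 3 or 4. The other 6 of the 9 pairs kept their call in each of the 8 omissions.

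**Figure D3:**
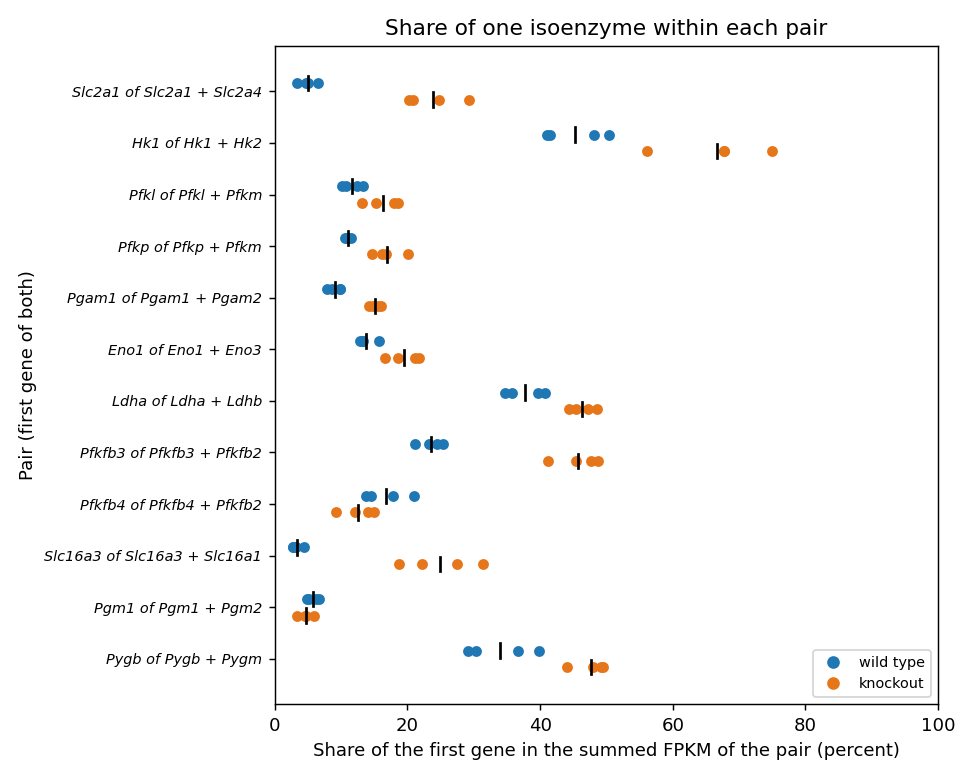
Share of the first gene in the summed FPKM of each of the 12 pairs tested (x axis, percent), with 1 point per heart library (blue wild type, orange knockout) and black ticks for group means. The share of Hk1 moves from a mean of 45.3% to 66.6% and that of Pfkfb3 from 23.5% to 45.7%, whereas Pgm1 and Pfkfb4 overlap between groups.

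In most pairs the gene listed second nevertheless remained the larger part. In the knockout hearts Slc2a1 made up 23.8% ± 4.16 of its pair with Slc2a4 and Slc16a3 24.9% ± 5.59 of its pair with Slc16a1. The shares of Pgam1, Eno1 and Pfkp against their muscle partners were 15.2% ± 0.788, 19.5% ± 2.41 and 16.9% ± 2.26. Hk1 alone of the first genes exceeded its partner in mean, at 66.6% ± 7.79. Summed over a step, the level in the knockouts was 1.31-fold the wild type mean for glucose uptake, 1.30-fold for phosphoglucomutase, 1.23-fold for lactate dehydrogenase and 1.17-fold for enolase, with no overlap between groups. With overlap, it was 1.35-fold for lactate transport, 1.19-fold for aldolase, 1.18-fold for phosphoglycerate mutase, 1.08-fold for hexokinase, 1.05-fold for phosphorylase and 0.991-fold for phosphofructokinase. These sums were not tested.

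The libraries differed in ways that touch the whole set. Wild type replicate 4 held the lowest wild type value in 25 of the 33 genes tested (75.8%, beside 35.1% of all genes). Knockout replicate 1 held the highest knockout value in 16 of 33 (48.5%, beside 30.2%) and knockout replicate 3 the lowest in 18 of 33 (54.5%, beside 19.2%). Wild type replicate 4 also held airway transcripts: the airway and lung markers Scgb1a1, Scgb3a2, Sftpc, Sftpa1 and Sftpb summed to 1241 FPKM there and to at most 0.481 FPKM in the other libraries. The title of knockout replicate 4 has a library number apart from the rest. Without both samples numbered 4, 12 of the 33 rose and 1 fell, while over all genes 467 rose and 528 fell. The part of the airway RNA and of the library number in the results was not tested.

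**Figure D4:**
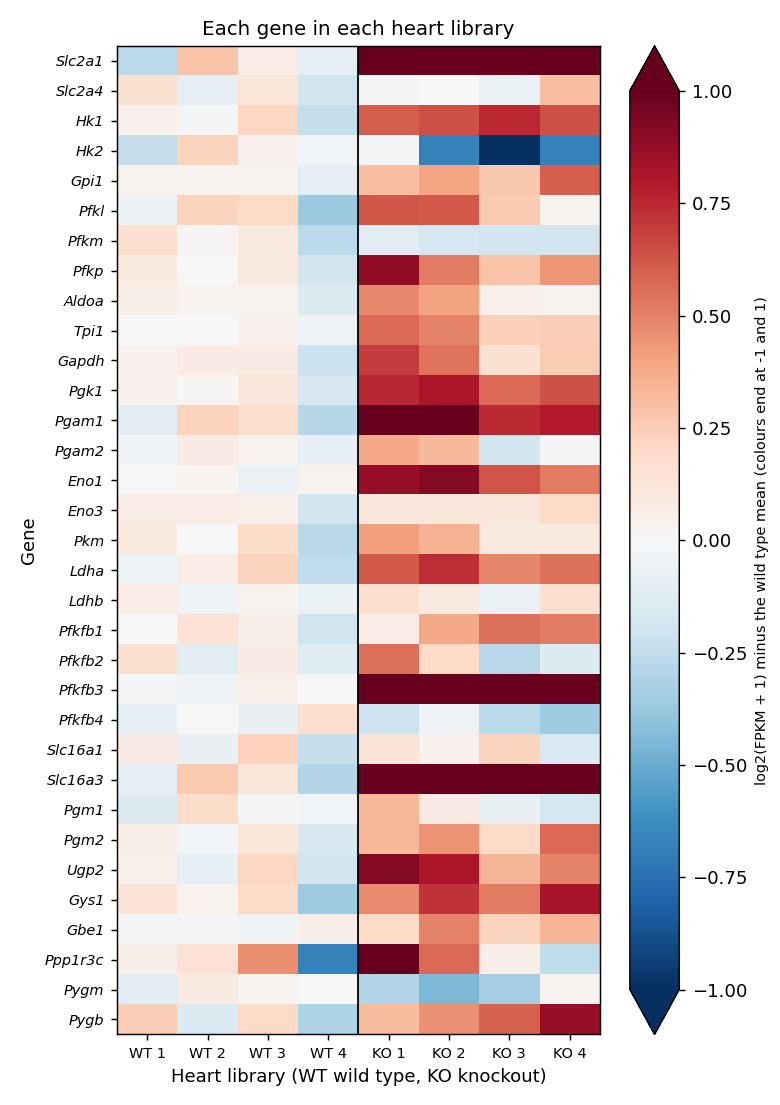
Each of the 33 genes tested (rows, ordered by step) in each heart library (columns), as log2(FPKM + 1) minus the mean of the 4 wild type libraries, with red above and blue below it and colours ending at -1 and 1. Slc2a1, Pfkfb3 and Slc16a3 are at the red end in all 4 knockout columns, Hk2 is blue in knockout replicates 2 to 4, and the wild type replicate 4 column is mostly pale blue.

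Markers of other cells were read beside these genes. The 13 endothelial markers summed to 634 to 749 FPKM across wild type libraries and 615 to 677 FPKM across knockouts, with 1 raised and 4 lowered. The 10 cardiomyocyte markers summed to 42438 to 48329 FPKM and 35211 to 44192 FPKM, with 1 raised (Mybpc3) and 1 lowered (Tnni3) of 10. For the 7 fibroblast markers the sums were 1073 to 1254 FPKM and 572 to 852 FPKM, with 0 raised and 3 lowered. The 5 erythroid markers matched summed to 1209 to 6170.3 FPKM and 192 to 1568 FPKM, and 0 of 3 tested were called (0 raised, 0 lowered). Macrophage markers (0 of 5 called) summed to 44.2 to 50.7 FPKM and 43.8 to 53.7 FPKM. Skeletal muscle markers were low, at 7.70 to 9.43 FPKM and 3.60 to 10.9 FPKM over the 9 matched, with 1 of 3 tested lowered (Tnni2). Brown fat markers (0 of 3 tested called) summed to 29.7 to 52.8 FPKM and 33.9 to 66.0 FPKM. Most of this sum was Cidea, at 33.6 ± 4.02 and 34.1 ± 4.27 FPKM. Ucp1 varied widely between libraries, at 9.53, 0.132, 0.700 and 10.1 FPKM in wild type and 2.68, 15.4, 11.4 and 0 FPKM in knockouts. The part of these cell types in the changes was not tested.

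Other genes of these pathways, from lists that hold none of the 36, were read in the same fit. Of 17 further sugar transport and glycolysis genes tested (35 listed), 2 rose and 1 fell, with a median log2 difference of 0.01. Fbp2, the muscle fructose bisphosphatase that runs against phosphofructokinase, was at 32.1, 34.5, 32.5 and 31.7 FPKM across wild type libraries and 17.5, 14.5, 16.6 and 22.1 FPKM across knockouts, and all knockout values were lower (log2 difference -0.87 ± 0.11, adjusted p = 0.00228). Among those that rose was Gpd1l, related to glycerol 3-phosphate dehydrogenase, with a 1.60-fold higher mean (adjusted p = 0.0286).

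Of 20 further glycogen genes tested (24 listed), 4 rose and 1 fell, with a median log2 difference of 0.28. Pygl, the liver phosphorylase, was at 2.32, 2.78, 2.92 and 3.43 FPKM across wild type libraries and 5.66, 7.71, 6.09 and 9.46 FPKM across knockouts without overlap (log2 difference 1.08 ± 0.15, adjusted p = 0.00288). Gyg, the glycogenin that primes glycogen, Gsk3b, a kinase that inhibits glycogen synthase, and Ppp1r3a, a glycogen-targeting phosphatase subunit, rose 1.23-fold, 1.73-fold and 1.66-fold (adjusted p of 0.0378, 0.0149 and 0.0439). Phkg1, the muscle catalytic subunit of phosphorylase kinase, was at 6.53, 5.51, 9.13 and 3.62 FPKM across wild type libraries and 1.18, 1.92, 3.84 and 1.63 FPKM across knockouts (log2 difference -1.21 ± 0.28, adjusted p = 0.0261). In the pentose phosphate pathway, which branches off at glucose 6-phosphate, 1 of 10 genes rose, Pgd, from 15.7 ± 0.653 to 19.8 ± 0.776 FPKM (adjusted p = 0.0195), and 0 fell.

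Because many of these genes moved together, their promoters were searched for the core letters of the hypoxia response element, ACGTG and GCGTG, on both strands in the 250 bases before each RefSeq start (build GRCm38.p6); ACGTG on both strands can overlap in CACGTG. RefSeq windows were found for 34 of the 36 genes, all but Slc2a3 and Slc2a4. At least 1 match stood in 28 of the 34 (82.4%), beside 41.5% of all RefSeq genes, which are not limited to genes tested here. Genes with more windows have more places for a match. By window, 38 of 52 (73.1%) held a match, beside 38.6% of all windows. The median GC content was 59.6% over the 52 windows of these genes and 52.4% over all windows. Among the genes that rose, 12 of 16 held a match (75%), and among those tested and not called, 15 of 16 (93.8%). Slc2a1, Slc16a3 and Pgk1, which rose, and 2 pairs whose members moved differently, Pgam1 with Pgam2 and Slc16a3 with Slc16a1, are printed here 5′ to 3′ on the gene's strand, without bases inside the gene's annotated exons, and with the matches in capitals.
Slc2a1 (chr4:119108495-119108710, plus strand): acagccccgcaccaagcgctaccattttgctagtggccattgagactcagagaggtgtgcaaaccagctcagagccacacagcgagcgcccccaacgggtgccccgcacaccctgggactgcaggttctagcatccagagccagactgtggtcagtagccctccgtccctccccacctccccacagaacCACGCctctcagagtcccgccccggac
Slc16a3 (chr11:120948817-120949052, plus strand): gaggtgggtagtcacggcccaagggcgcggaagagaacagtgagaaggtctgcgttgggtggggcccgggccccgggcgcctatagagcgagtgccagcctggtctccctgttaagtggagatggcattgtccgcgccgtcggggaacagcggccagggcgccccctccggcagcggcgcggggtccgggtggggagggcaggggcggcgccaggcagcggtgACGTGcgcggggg
Slc16a1 (chr3:104638414-104638663, plus strand): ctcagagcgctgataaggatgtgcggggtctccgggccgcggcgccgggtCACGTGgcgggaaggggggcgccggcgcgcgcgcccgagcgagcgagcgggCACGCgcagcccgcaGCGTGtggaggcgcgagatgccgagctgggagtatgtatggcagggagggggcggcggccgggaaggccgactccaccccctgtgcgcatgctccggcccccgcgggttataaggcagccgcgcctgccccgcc
Pgam1 (chr19:41911621-41911870, plus strand): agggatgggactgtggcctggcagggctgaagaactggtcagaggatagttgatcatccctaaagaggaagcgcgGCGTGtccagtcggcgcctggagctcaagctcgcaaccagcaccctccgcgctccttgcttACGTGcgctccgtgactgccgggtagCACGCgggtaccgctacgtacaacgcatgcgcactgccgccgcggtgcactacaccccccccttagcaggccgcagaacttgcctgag
Pgam2 (chr11:5803797-5804046, minus strand): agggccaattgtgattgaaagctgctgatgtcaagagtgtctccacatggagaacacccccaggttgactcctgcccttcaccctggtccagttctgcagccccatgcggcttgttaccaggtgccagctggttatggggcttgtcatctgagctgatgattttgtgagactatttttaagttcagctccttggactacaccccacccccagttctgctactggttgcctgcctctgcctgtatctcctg
Pgk1 (chrX:106186850-106187099, plus strand): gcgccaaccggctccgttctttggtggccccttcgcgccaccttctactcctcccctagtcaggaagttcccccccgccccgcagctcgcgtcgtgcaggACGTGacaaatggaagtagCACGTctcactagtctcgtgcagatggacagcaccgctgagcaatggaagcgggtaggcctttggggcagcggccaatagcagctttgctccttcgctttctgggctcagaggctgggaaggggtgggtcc
The Pgam1 window held 3 matches and the Pgam2 window 0. Slc16a1, which did not pass the test, held 4 matches, more than the 2 in the whole Slc16a3 window, of which 1 lies in the stretch shown. Slc2a1 likewise held 2 in the whole window and 1 in the stretch shown. A match is a description of the letters, not a binding site.

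Strand was not given for the quantification, and the exons of 14 of the 36 genes overlap those of another gene in GENCODE M21, 8 of them among the 16 that rose (Slc2a1, Hk1, Gpi1, Pfkp, Tpi1, Pgm2, Ugp2 and Gys1), so their values may hold reads of the partner. Gapdh, Pgk1, Ldha, Pgam1, Eno1, Aldoa and Tpi1 are also known to have near-identical processed pseudogenes, between which reads may have been divided.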

How the data were processed

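RNA of whole hearts was sequenced in 8 libraries. The authors deposited 1 table of FPKM values, named as quantile-normalised; TopHat2, Cufflinks and mm10 are named without versions, per the submitters' processing notes. Neither the strand setting nor the read depth is stated, so no counting interval could be set. Quantile normalisation gives all libraries nearly the same set of values (over the ranks tested, a given rank differs by at most 3.87% between libraries), so differences are relative to the other genes of the library.

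The values were transformed to log2(FPKM + 1), genes averaging 1 FPKM or more were kept, and limma 3.58.1 in R 4.3.3 (eBayes with trend and robust options) compared knockout with wild type over all 11390 genes kept, with Benjamini-Hochberg adjustment and a threshold of 0.05. Intervals are at the 95% level and cover 1 gene at a time. Isoenzyme ratios were tested by exact permutation. On simulated data of 11390 genes this comparison recovered 58.2% of genes changed 1.5-fold, 91% at 2-fold and 100% at 4-fold, and 10 of 176 calls were unchanged genes. The folds were set on the log2(FPKM + 1) scale with independent normal noise. They were given to 67, 67 and 66 genes, while 12.2% of all genes were called in the data, so the rates may differ there. Promoters came from RefSeq and exons from GENCODE M21; 21739 of the 22518 gene identifiers were found in the latter. The 36 genes were all named, with the called genes of the other lists except 1, which is counted but not reported here; the members and the lists were chosen with earlier results of these data known. Alternatives were other pseudocounts and filters, median-ratio scaling, no trend, array weights, a Ddx3y covariate, a replicate block and omission of libraries. Protein identity between isoenzymes was not analysed here.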

Additional observations from a re-analysis of the deposited data

Results flagged for a closer look

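Among 96 groups of 4 values that were checked for a single distant sample (Dixon's test at the 95% level, on the gap to the nearest value over the group's range), 5 were marked, and chance marks about 1 in 20 such groups. Wild type replicate 4 was the distant sample in 3 of them. Its Gpi1 value was 244.6 FPKM, with the other wild type libraries at 265.03 to 266 FPKM (gap 0.936 of the range). Its Gapdh value was 1707 FPKM, with the others at 2038 to 2096 FPKM (0.851), and its Eno3 value was 727 FPKM, with the others at 861 to 874 FPKM (0.917). Knockout replicate 4 was the distant sample in the other two: Slc2a4 was at 76.0 FPKM there and at 58.7 to 61.3 FPKM in the other knockouts (0.847), and Eno3 at 952 FPKM with the other 3 knockouts at the same value of 899 FPKM. Several of these genes hold values that the normalisation made equal between libraries, which makes the range of the remaining samples small.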

How the results depend on the processing

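Of the 16 members called higher, 8 were called under each of the 17 alternatives that gave them a value (Slc2a1, Hk1, Pgk1, Pgam1, Eno1, Ldha, Pfkfb3 and Slc16a3). With 1 library left out, 9 to 17 members were higher and 0 to 1 lower, and over all genes 288 to 931 were higher and 286 to 888 lower, beside 701 and 684. A replicate block gave 9 members higher, 323 genes higher and 290 lower. Deviations from the group means correlated at -0.226 to 0.102 between same-numbered samples and at -0.186 to 0.274 between differently numbered ones. With 4 samples per group these values cannot settle whether the numbers pair the samples. Array weights gave 2 members lower (Hk2 and Pygm) and 1055 genes lower. Omission of both samples numbered 4 gave 467 genes higher and 1 member lower (Pygm). The cause of these differences was not tested. With 1 library left out, Hk1 to Hk2 ranged from 1.08 to 1.48, Eno1 to Eno3 from 0.53 to 0.69, Pygb to Pygm from 0.72 to 0.95 and Pfkl to Pfkm from 0.46 to 0.66. Slc2a4, not called, was at -0.0533 with array weights, -0.0928 without both samples numbered 4 and -0.0273 to 0.107 with 1 library left out. The same ranges were -0.0702 to 0.204 for Pfkfb2, -0.0177 to 0.137 for Slc16a1 and -0.0574 to 0.112 for Pgm1. For isoenzyme ratios, 3 against 3 samples (smallest p 0.1) and 4 pairs (smallest p 0.125) cannot reach the threshold. Depth is unknown, which limits what can be said of Slc2a3, Aldoc and Eno2.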
